A study of Mus musculus with 4 samples.

Results

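Penk encodes proenkephalin, the precursor that is cut into the opioid pentapeptides Met-enkephalin and Leu-enkephalin. It is 1 of 38282 genes listed in the deposited tables and was found by its Ensembl ID, ENSMUSG00000045573, which GENCODE M21 names Penk. Proenkephalin carries several copies of the enkephalin core, which proprotein convertases release and carboxypeptidases trim. The freed peptides act on delta and mu opioid receptors, which couple to inhibitory G proteins, and peptidases at the cell surface end their action. Outside the nervous system and the adrenal medulla, activated T helper cells are a classical source of Penk mRNA, and regulatory T cells have been described to express it.

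The cells were splenic naive CD4+ T cells of C57BL/6 mice, kept in culture under the Th0 condition and collected on day 4. Th0 usually means activation without the cytokines that direct T helper cells to a lineage. One group had no dopamine (Th0) and the other had dopamine (Th0+Dopa), and both shared the strain, tissue and culture condition. Each group held 2 libraries, numbered 2 and 3. The age of the mice, any genotype beyond the strain, the dopamine dose and any pooling of animals are points not given in the sources used here. No label states that numbers 2 and 3 mark separate animals or cultures, so errors and p-values cover the spread of these libraries alone, which could be technical. The comparison addresses how dopamine changes the transcripts of activated CD4+ T cells, in a study of dopaminergic nerves and Th2 inflammation of the young lung.

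Levels are in FPKM, fragment counts scaled by the authors to transcript length in kilobases and to a size set for each library. Whether that size was the count of mapped fragments or another factor is unknown. Libraries 2 stand in one table and libraries 3 in another, and differences were taken within a table. Genes above 0 numbered 17833 and 19177 in Th0 2 and Th0 3, and 15974 and 16276 in Th0+Dopa 2 and Th0+Dopa 3. The FPKM values of a library summed to 687066 and 715110 in Th0, and to 880583 and 794873 with dopamine. Both libraries with dopamine thus had fewer genes above 0 and a higher sum than either Th0 library. Differences between groups are on the scale of log2(FPKM + 1), Th0+Dopa minus Th0, as the mean of both tables. Read depth is not given. The low values of single-transcript genes lay near whole multiples of 1 fragment (79.1% to 83.9% within 0.15 fragment, against 30% by chance). From these steps, and from Penk transcript lengths of 721 to 1449 bases, Penk would rest on about 498 to 1001 fragments in Th0 2, 459 to 922 in Th0 3, 58.9 to 118 in Th0+Dopa 2 and 70.1 to 141 in Th0+Dopa 3.

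The cells carried the T cell markers that their label names. All 14 genes of a T cell identity list were above the filter, a mean of at least 1 FPKM over the 4 libraries, and the list summed to between 2402 and 2631 FPKM per library. The 7 B cell markers summed to at most 5.81 FPKM. Of 10 stromal markers, Col3a1 and Cdh5 were listed at 0 in every library, and nearly all of the summed 20.6 to 28.1 FPKM came from Pecam1, which leukocytes also carry.

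Penk was abundant in the Th0 libraries and low in the libraries with dopamine. It stood at 109 FPKM in Th0 2 and 133 FPKM in Th0 3, and at 13.3 FPKM in Th0+Dopa 2 and 15.8 FPKM in Th0+Dopa 3. The lower Th0 value was 6.93 times the higher value with dopamine. Within the table of libraries 2, Th0 was 8.20 times Th0+Dopa, and within that of libraries 3 it was 8.44 times. With dopamine, 12.2% and 11.8% of the Th0 level was left in the same order. The gene was proposed with this difference already known, so the difference is described here and not tested.

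**Figure D1:**
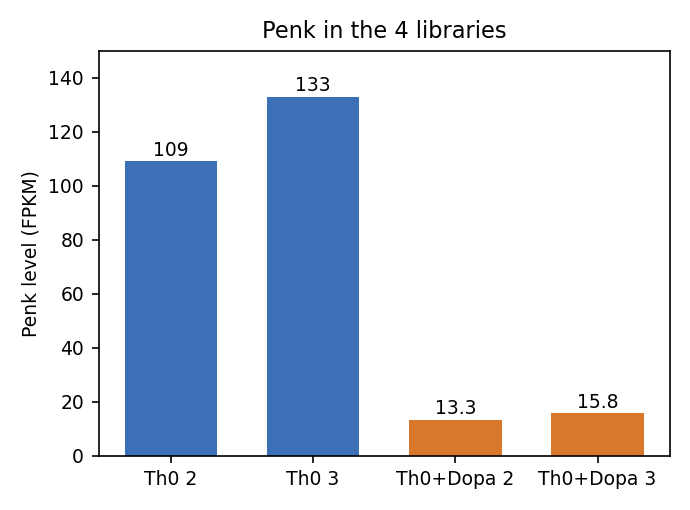
Penk level in FPKM (vertical axis, linear from 0) in each of the 4 libraries (horizontal axis), with Th0 in blue and Th0+Dopa in orange. Each bar is 1 library, and both Th0 libraries (109 and 133 FPKM) stand far above both libraries with dopamine (13.3 and 15.8 FPKM).

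The groups averaged 121 ± 16.9 FPKM in Th0 and 14.5 ± 1.73 FPKM with dopamine (SD, n = 2 per group, with levels compared across both tables). Libraries of the same group differed far less than the groups did: Th0 3 was 1.22 times Th0 2, and Th0+Dopa 3 was 1.18 times Th0+Dopa 2. On the log2(FPKM + 1) scale the difference was -2.94 in libraries 2 and -3.00 in libraries 3, a mean of -2.97 with an SD of 0.040 between the pairs (n = 2). The pseudocount of 1 hardly compresses a gene at this level, and with a pseudocount of 0.1 the mean was -3.05. Leaving out 1 library at a time gave differences from -3.09 to -2.85.

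Penk was among the abundant messages of the Th0 libraries and in the middle of the range with dopamine. Among protein-coding genes above 0, it ranked 726 of 14416 from the top in Th0 2 and 569 of 15433 in Th0 3. With dopamine it ranked 5170 of 13131 in library 2 and 4760 of 13328 in library 3. Of these genes, 95.0% and 96.3% lay below it in Th0, and 60.6% and 64.3% with dopamine. Its share of all summed FPKM was 0.0159% and 0.0186% in Th0, and 0.00151% and 0.00198% with dopamine.

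Few genes had as low a difference. Of 11423 tested genes, limma called 10.7%, with 6.28% higher and 4.39% lower, at a Benjamini-Hochberg adjusted p under 0.05. Penk ranked 14 from the lowest of 10153 tested protein-coding genes by its mean difference, 10 in the table of libraries 2 and 23 in that of libraries 3. Among all 11423 tested genes, noncoding genes included, the same ranks were 23, 33 and 48. The median tested protein-coding gene had a difference of 0.021. Only 9 protein-coding genes, Penk included, were at least as low as Penk in both tables. The others were the neutrophil genes S100a9 and Mpo, the basophil protease gene Mcpt8, the lysozyme gene Lyz2, the Fc receptor chain gene Fcer1g and 3 genes with Gm names (Gm21738, Gm10800 and Gm10801).

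Among abundant genes the place of Penk was close to the bottom. Of 635 tested protein-coding genes with a Th0 mean at least as high as that of Penk, 7 had a lower difference: Mcpt8, Lyz2, the basophil protease gene Prss34, the macrophage elastase gene Mmp12 and the same 3 genes with Gm names. In Th0 2 and Th0 3, Gm21738 stood at 115 and 339 FPKM, Gm10800 at 4338 and 12778, and Gm10801 at 1002 and 3237. These 3 genes thus differed far more between the Th0 libraries than Penk did. The median of the 635 genes was 0.050. Among 1169 tested protein-coding genes whose Th0 mean lay within 2-fold of that of Penk, it ranked 7 from the lowest. By FPKM lost, 107 FPKM between the group means, it ranked 48 of 10153.

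Direct neighbours in the order of mean differences were Fcer1g (-3.03), Mmp12 (-2.99) and the eosinophil granule gene Prg2 (-2.98) just below Penk. The carbonic anhydrase gene Car1 (-2.96), the macrophage chitinase-like gene Chil3 (-2.88) and the lectin receptor gene Clec4n (-2.85) lay just above. The Th0 levels of these 6 genes ran from 17.2 FPKM for Car1 to 271 FPKM for Mmp12, and in both Th0 libraries Penk was above all of them but Mmp12.

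The 10 protein-coding genes closest in pattern were found from the distance between their pair of within-table differences and that of Penk, over 4 libraries in 2 tables. In order of distance they were Car1, Fcer1g, Clec4n, Chil3, Lyz2, Mmp12, Anxa1, Ccl6, Prss34 and Clec4e. Their distances ran from 0.103 to 0.404 log2 units, against a median of 4.24 over 10152 genes. Of the 10, Fcer1g, Lyz2, Mmp12 and Prss34 belong to the lists of myeloid or granulocyte markers used here. Clec4n and Clec4e encode lectin receptors of myeloid cells, and Ccl6 is a chemokine made mostly by myeloid cells. The genes were picked from the same values as the pattern, so this is a description and carries no test.

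**Figure D2:**
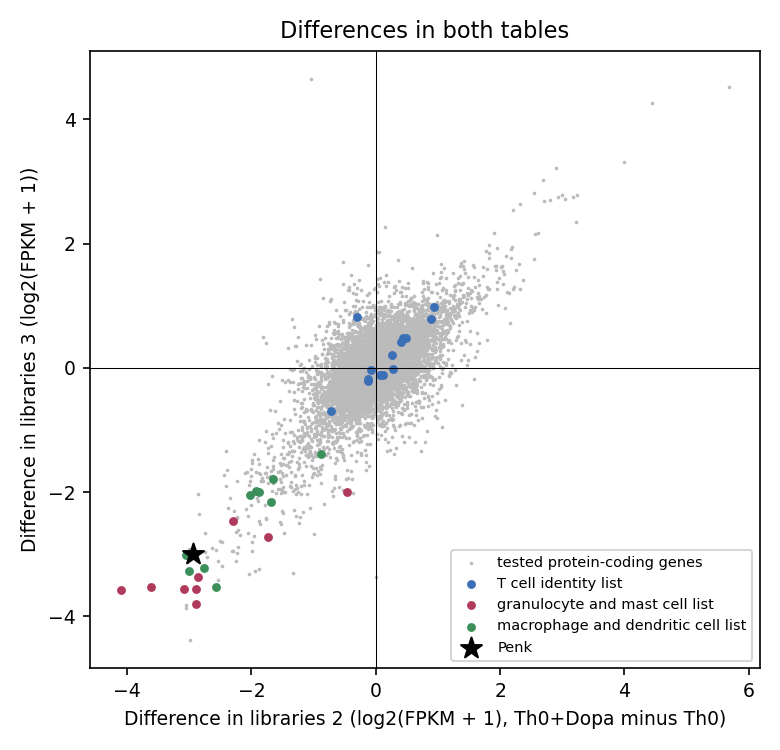
Difference in libraries 2 (horizontal axis) against difference in libraries 3 (vertical axis), both log2(FPKM + 1), Th0+Dopa minus Th0, for tested protein-coding genes in grey, with the tested genes of 3 marker lists in colour and Penk as a star. Penk, at -2.94 and -3.00, lies among the granulocyte and mast cell genes and the macrophage and dendritic cell genes at the lower left, while T cell identity genes lie around 0.

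Markers of granulocytes, mast cells, macrophages and dendritic cells moved with Penk. The only tested B cell marker, Cd79b, did not (0.28 ± 0.24, not called). Of 12 granulocyte and mast cell markers, 9 were tested and 8 fell (88.9% against 4.39% of all tested genes), with a median difference of -3.22 against 0.027 over all tested genes. Their summed level was 449 FPKM in Th0 2 and 599 FPKM in Th0 3, against 50.8 FPKM in Th0+Dopa 2 and 47.1 FPKM in Th0+Dopa 3. Elane, the neutrophil elastase gene, was the only marker of the list at 0 in any library, in both libraries with dopamine. Of 12 macrophage and dendritic cell markers, 10 were tested and 9 fell (90%, median difference -1.99), and the sum was 426 and 572 FPKM in Th0 against 56.7 and 57.6 FPKM with dopamine. None of these 12 was listed at 0 in any library. Cd68, Spi1, Mpeg1, Itgax and Csf1r averaged 0.958, 0.840, 0.725, 0.856 and 0.239 FPKM with dopamine. These called genes passed the filter of 1 FPKM only through their Th0 levels. With a filter of 5 FPKM, only Mmp12, Lyz2, Clec7a and Fcer1g were tested, and all 4 were called. No call in either list passed in the fits that left out 1 library, whichever it was.

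The level of Penk was also set against these sums in each library. Penk equalled 0.243 and 0.222 of the granulocyte and mast cell sum in Th0 2 and Th0 3, and 0.262 and 0.334 in Th0+Dopa 2 and 3. Relative to the macrophage and dendritic cell sum it was 0.256 and 0.233 in Th0 and 0.235 and 0.274 with dopamine. Relative to the T cell identity sum it was 0.0437 and 0.0542 in Th0 and 0.00506 and 0.00656 with dopamine. The ratio to the granulocyte sum was higher, and the ratio to the T cell sum lower, in both libraries with dopamine than in either Th0 library, while the groups overlapped in the ratio to the macrophage sum.

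**Figure D3:**
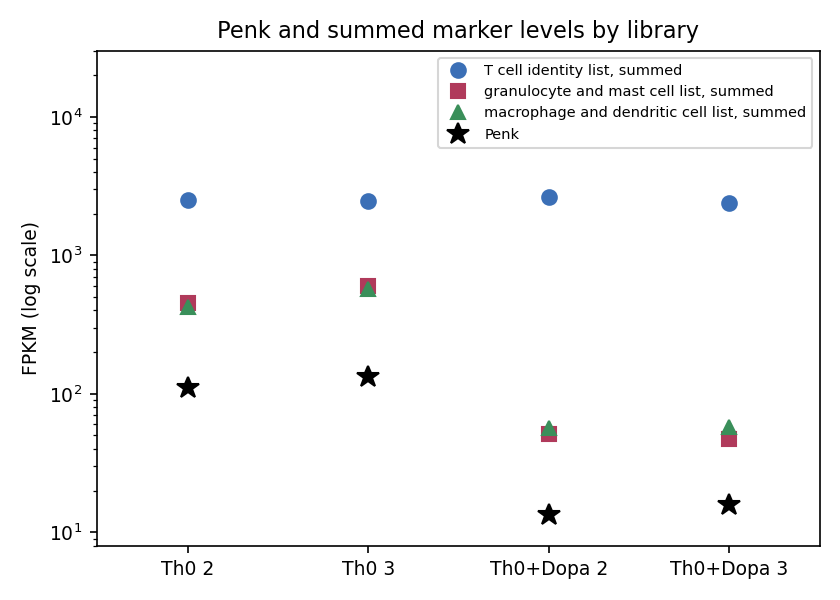
FPKM on a log axis (vertical) in each library (horizontal axis) for Penk (stars) and for the summed levels of the T cell identity, granulocyte and mast cell, and macrophage and dendritic cell lists. Penk and both myeloid sums are lower in the libraries with dopamine, and the T cell sum stays between 2402 and 2631 FPKM.

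The part of these cells in the Penk values was not tested. In bulk RNA, fewer cells of a type and less RNA per cell cannot be told apart. Between the Th0 libraries, Penk and both sums were higher in library 3. Between the libraries with dopamine, Penk was higher in library 3, the granulocyte sum was lower there, and the macrophage sums were close to each other. In the T cell list, 4 of 14 tested genes rose (Cd3d, Cd5, Cd6 and Zap70) and 1 fell (Trac), or 28.6% and 7.14% against 6.28% and 4.39% of all tested genes, with a median difference of 0.18. With libraries scaled to a common sum, 2 were called higher and 2 lower. With protein-coding genes so scaled the counts were 3 and 0. That fit left out Trac, Trbc1 and Trbc2, which are not annotated as protein coding, so it could not call Trac. With a pseudocount of 0.1 the counts were 5 and 1, and with a filter of 0.1 FPKM 2 and 1. After a correction of the differences for GC content and length they were 3 and 1, and Zap70 had 0.17 (limma adjusted p = 0.332). Without the block 1 was called higher and 0 lower, and without trend or with any 1 library left out 0 were called.

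Regulatory T cell markers were described beside Penk as well. Foxp3, which encodes their defining transcription factor, was too low to be tested, at 0.353 FPKM in Th0 2, 0.701 in Th0 3, 0.0459 in Th0+Dopa 2 and 0.183 in Th0+Dopa 3. Of the 8 tested genes of that list, limma called 0 higher and 1 lower (0 and 2 at an unadjusted p under 0.05), the latter being the inhibitory receptor gene Ctla4. This was 12.5% lower against 4.39% of all tested genes, and scaling to a common sum gave 2 lower calls over all genes and 3 over protein-coding genes. Ctla4 stood at 184 and 181 FPKM in Th0 and at 66.8 and 54.5 FPKM with dopamine, a difference of -1.58 ± 0.12 (limma SE, adjusted p = 0.00195). It did not pass in fits without Th0 2 or Th0 3 (adjusted p = 0.161 and 0.226), or without Th0+Dopa 2 or Th0+Dopa 3 (0.102 and 0.0944). Activated conventional T cells express Ctla4 too.

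The gene lies on chromosome 4 at 4133531 to 4138819 on the minus strand (GRCm38, the mm10 build, GENCODE M21). The nearest gene at lower coordinates, Sdr16c6, lies 56008 bases away, and both it and Sdr16c5 were listed at 0 in the 4 libraries. The next gene, the pseudogene Rps10-ps3, had 0.402 FPKM in Th0 2 and was listed at 0 elsewhere. At higher coordinates, the pseudogene Gm11780 and the small RNA gene Gm26436 were listed at 0 in every library. Impad1, a phosphatase gene 623664 bases away, was the only one of these 6 neighbours with a level above 1 FPKM, at 22.6 and 22.6 FPKM in Th0 and 19.3 and 21.2 FPKM with dopamine. Impad1 thus lay within a narrow range in the 4 libraries, and no other of these neighbours had a level to set beside that of Penk.

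One gene overlaps Penk. A830012C17Rik, a processed transcript on the plus strand (4138321 to 4188703), shares 233 exonic bases with the 1634 exonic bases of Penk, at the start of Penk. It was at 0.861 FPKM in Th0 2 and 0.510 in Th0 3, and at 0.196 in Th0+Dopa 2 and 0 in Th0+Dopa 3. It lay under the filter and was not tested. Use of the strand in counting is a detail not given in the sources used here. Reads in the shared bases cannot be assigned with certainty, but the overlapping gene's level was below 1 FPKM in every library, against at least 13.3 FPKM for Penk.

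The other opioid precursors were near or at 0. Pomc, which encodes the precursor of beta-endorphin, stood at 0.670 and 0.223 FPKM in Th0 and at 1.56 and 0.516 FPKM with dopamine. Pdyn, the dynorphin precursor gene, was at 0.286 and 0.0864 FPKM in Th0 and at 0 and 0.0660 FPKM with dopamine. Pnoc, the nociceptin precursor gene, was listed at 0 in all 4 libraries. None of these 3 genes passed the filter, so Penk was the only opioid precursor gene above it, at least 8.52 times the 3 others together in every library.

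Genes for the enzymes that turn proenkephalin into peptide were partly missing. Of 9 listed, 4 were tested, and limma called 0 higher and 0 lower (0 and 1 at an unadjusted p under 0.05). The 4 were Cpd, a carboxypeptidase gene (0.28 ± 0.15), Furin, a proprotein convertase gene (0.27 ± 0.22), Rnpep, the gene of aminopeptidase B (0.22 ± 0.18), and Ctsl. Ctsl, which encodes cathepsin L, a lysosomal protease that also cuts proenkephalin in secretory vesicles, had 6.76 and 9.96 FPKM in Th0 and 4.41 and 2.92 FPKM with dopamine. Its difference of -1.00 ± 0.28 did not pass (limma adjusted p = 0.0824). It passed when libraries were scaled to a common sum (-1.22, limma adjusted p = 0.0329). It also passed with protein-coding genes scaled to a common sum (adjusted p = 0.00525) or with a pseudocount of 0.1 (adjusted p = 0.0491). Pcsk1, Pcsk2 and Cpe, the classical neuroendocrine processing genes, reached at most 0.598 FPKM, and Pcsk1n, the gene of a convertase inhibitor, was listed at 0 throughout.

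Classical opioid receptor genes were not detectable above the filter. Oprd1, the delta receptor gene with the highest affinity for enkephalins, was at 0.0375 and 0.0501 FPKM in Th0 and listed at 0 with dopamine. Oprm1, the mu receptor gene, was above 0 only in Th0 3, at 0.108 FPKM. Oprk1 lay at 0.0829 FPKM or less, Oprl1 was above 0 only in Th0 3, and Ackr3, an atypical receptor that takes up opioid peptides, was listed at 0 in every library. Values this low correspond to less than 1 fragment per kilobase, so they set no level. The exception was Ogfr, the gene of the opioid growth factor receptor, a nuclear-envelope protein that binds Met-enkephalin and is unrelated to the classical receptors. Ogfr stood at 71.4 and 66.3 FPKM in Th0 and at 88.0 and 80.1 FPKM with dopamine. Its difference of 0.28 ± 0.10 did not pass (limma adjusted p = 0.148).

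Partners of opioid receptors inside the cell were present. Of 9 listed genes 6 were tested, and limma called 0 of them in either direction (0 at an unadjusted p under 0.05). The inhibitory G protein genes Gnai3 and Gnai2 had differences of -0.067 ± 0.10 and 0.13 ± 0.14, the receptor kinase gene Grk2 0.18 ± 0.11, and the arrestin gene Arrb2 -0.26 ± 0.13. These partners serve many receptors besides opioid receptors.

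Of 8 genes for peptidases that degrade enkephalins, 5 were tested and 1 rose (20% against 6.28% of all tested genes). The surface peptidases best known for this role, neprilysin (Mme), aminopeptidase N (Anpep) and Ace, reached at most 0.266 FPKM and were listed at 0 in both libraries with dopamine. Ece1, the endothelin-converting enzyme gene, was at 8.79 FPKM in Th0 2 and 20.6 FPKM in Th0 3, and at 44.3 FPKM in Th0+Dopa 2 and 51.0 FPKM in Th0+Dopa 3. Ece1 rose by 1.74 ± 0.23 (limma adjusted p = 0.0118). Its Th0 libraries differed 2.34-fold from each other, more than those of Penk. Ece1 did not pass without the block (adjusted p = 0.0670), without trend (0.0803), in fits without Th0 2 or Th0 3 (adjusted p = 0.167 and 0.127), or in fits without Th0+Dopa 2 or Th0+Dopa 3 (0.310 and 0.226).

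The uncalled peptidase genes were Lnpep (-0.40 ± 0.16), Dpp3 (0.33 ± 0.12), Npepps (-0.17 ± 0.16) and Ece2 (0.54 ± 0.16). Dpp3 and Npepps encode cytosolic peptidases that cut enkephalins in vitro. Over the whole enkephalin pathway list of 35 genes without Penk, 16 were tested, 1 was called higher and 0 lower by limma (4 and 2 at an unadjusted p under 0.05), a share of 6.25% against 10.7% of all tested genes. The median difference of the 16 was 0.16, against 0.027 for all tested genes.

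**Figure D4:**
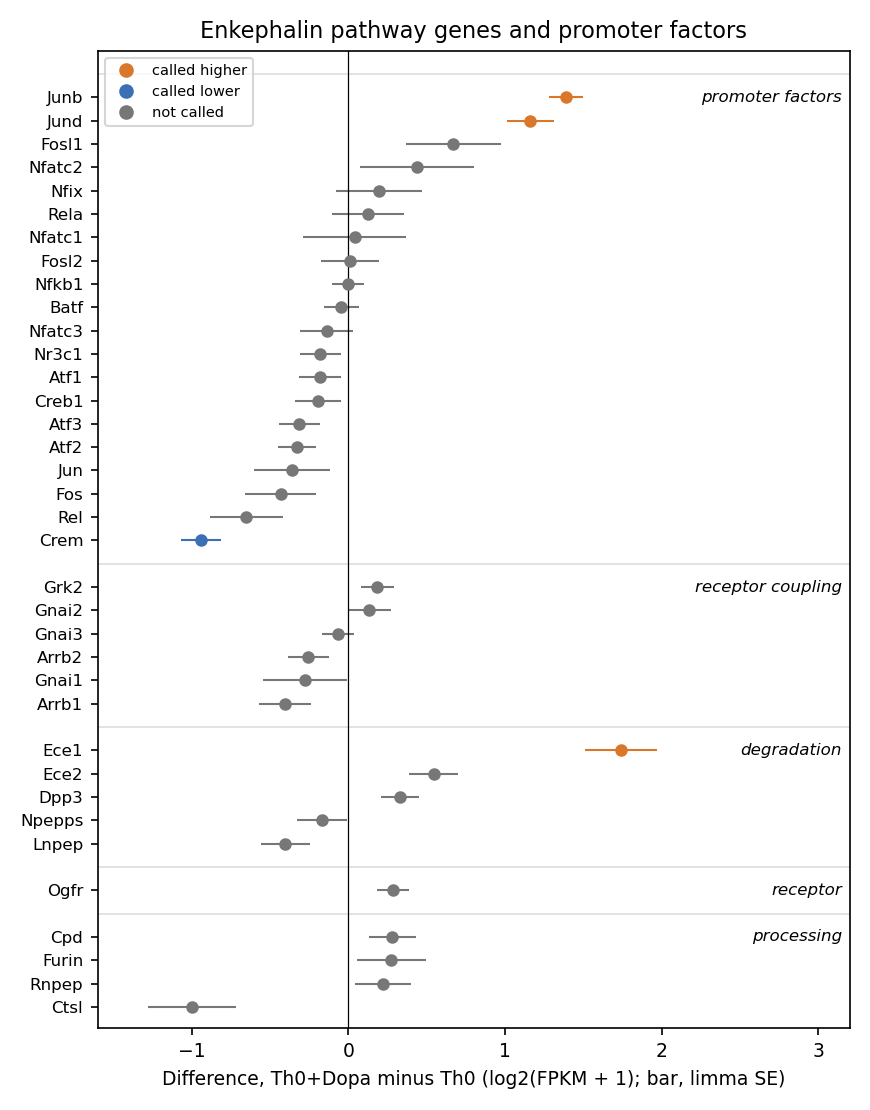
Difference between groups in log2(FPKM + 1), Th0+Dopa minus Th0 (horizontal axis), with bars of 1 limma SE, for each tested gene of the enkephalin pathway and of the factors of the Penk promoter (vertical axis, grouped by role). Ece1, Junb and Jund are called higher and Crem is called lower, and none of them approaches the -2.97 of Penk.

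Transcription factors described at the Penk promoter in any tissue, with others of their families, were compared as a list of 25. The promoter is a textbook target of cyclic AMP through CREB and AP-1 proteins, and NF-kappaB and NFAT sites have been described in T cells. Of these, 20 were tested, and limma called 2 higher (10% against 6.28% of all tested genes) and 1 lower (5% against 4.39%). The median difference was -0.093.

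Junb, an AP-1 subunit gene, was at 97.2 and 81.6 FPKM in Th0 and at 274 and 201 FPKM with dopamine. It rose by 1.39 ± 0.11 (limma adjusted p = 0.00242), or by 0.83 after a correction of the differences for GC content and length. Jund, another AP-1 subunit gene, went from 13.0 and 13.3 FPKM to 34.1 and 27.4 FPKM, a rise of 1.16 ± 0.15 (adjusted p = 0.0102). After that correction Jund had 0.23 (adjusted p = 0.353) and was no longer called.

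Crem, which encodes activators and the cyclic AMP-inducible repressor ICER, fell. It stood at 88.4 and 101 FPKM in Th0 and at 51.5 and 46.2 FPKM with dopamine, a difference of -0.94 ± 0.13 (limma adjusted p = 0.0124). Without trend, Jund and Crem did not pass (limma adjusted p = 0.0684 and 0.0906). Leaving out Th0 2 or Th0 3 gave limma adjusted p values of 0.206 and 0.335 for Junb, 0.217 and 0.320 for Jund, and 0.190 and 0.320 for Crem. Leaving out Th0+Dopa 2 or Th0+Dopa 3 gave 0.215 and 0.129 for Junb, 0.209 and 0.129 for Jund, and 0.187 and 0.147 for Crem.

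The remaining tested factors were not called. Nfkb1 had -0.0028 ± 0.10, Batf, an AP-1 family factor of T cells, -0.046 ± 0.11, Atf2 -0.33 ± 0.12 and Atf3 -0.31 ± 0.13. Creb1 itself had -0.20 ± 0.15 and Fos -0.43 ± 0.23. The largest uncalled difference downward in the list was that of the NF-kappaB subunit gene Rel, -0.65 ± 0.23 (limma adjusted p = 0.140). The largest uncalled difference upward was that of the AP-1 family gene Fosl1, 0.67 ± 0.30 (limma adjusted p = 0.214). Of the NFAT genes, Nfatc1 had 0.039 ± 0.33, Nfatc2 0.44 ± 0.37 and Nfatc3 -0.14 ± 0.17. Among all 20 tested factors, called ones included, 8 differences were positive and 12 negative.

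Among precursors of other neuropeptides and peptide hormones, Penk had the highest level in every library. With dopamine, at 13.3 and 15.8 FPKM in libraries 2 and 3, it still lay above each of them. Of 34 such genes, 16 were listed at 0 in every library and 29 did not pass the filter. In Th0 the 34 together summed to 10.8 and 8.92 FPKM, so Penk stood at 10.1 and 14.9 times their sum. With dopamine they summed to 21.7 and 18.2 FPKM, and Penk equalled 0.615 and 0.864 of the sum. Pth, the parathyroid hormone gene, was at 0.754 FPKM in Th0 2, 0 in Th0 3, 12.1 in Th0+Dopa 2 and 8.29 in Th0+Dopa 3, and is part of these sums.

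Pth was the only call among the 5 tested precursor genes, or 20% higher against 6.28% of all tested genes. Of these 5 genes, 0 were lower (0 at an unadjusted p under 0.05). Pth was higher by 3.06 ± 0.25 (limma adjusted p = 0.00301). It passed the filter only through the libraries with dopamine, with a mean of 10.2 FPKM there against 0.377 FPKM in Th0. It had limma adjusted p values of 0.125 and 0.223 without Th0 2 or Th0 3, and of 0.222 and 0.143 without Th0+Dopa 2 or Th0+Dopa 3. Nmb (0.54 ± 0.29), Nts (0.55 ± 0.31), Edn1 (-0.60 ± 0.37) and Npff (-0.68 ± 0.56) were not called, and each was at 5.91 FPKM or less in every library. Edn1 encodes endothelin-1, whose precursor is the best known substrate of Ece1.

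Genes that sense or handle dopamine itself were mostly low. Of 15, 3 were tested, and limma called 0 higher and 1 lower (33.3% lower against 4.39% of all tested genes). Drd2 and Drd4 were listed at 0 in all libraries, and Drd1, Drd3 and Drd5 reached at most 0.147 FPKM. Ddc, which encodes the decarboxylase of dopamine synthesis, had a difference of 0.17 ± 0.34 and was not called. Slc18a2, the vesicular monoamine transporter gene, which mast cells also express, was at 3.38 and 6.84 FPKM in Th0 and at 1.30 and 1.50 FPKM with dopamine. It fell by 1.29 ± 0.29 on the log2 scale (adjusted p = 0.0481), but did not pass after the correction for GC content and length (adjusted p = 0.0735), without the block (0.0980), without trend (0.0934), with a filter of 0.1 FPKM (0.0843), without Th0 2 or Th0 3 (0.167 and 0.391), or without Th0+Dopa 2 or Th0+Dopa 3 (0.342 and 0.221).

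Th2 cytokine genes give a reference of level and direction, since Penk mRNA has been described as abundant in mouse T helper cell clones. In Th0, Penk lay above Il4 (85.5 and 88.5 FPKM) and above Il13 (64.4 and 57.3 FPKM) in both libraries. With dopamine it lay far below both, with Il4 at 262 and 219 FPKM and Il13 at 137 and 121 FPKM. Il4 was higher with dopamine by 1.45 ± 0.12 (limma adjusted p = 0.00298) and Il13 by 1.07 ± 0.10 (adjusted p = 0.00447), the opposite direction to that of Penk in both tables. Neither passed without trend (limma adjusted p = 0.0507 and 0.0616 for Il4 and Il13). Leaving out Th0 2 or Th0 3 gave limma adjusted p values of 0.167 and 0.247 for Il4 and of 0.169 and 0.292 for Il13, and leaving out Th0+Dopa 2 or Th0+Dopa 3 gave 0.127 and 0.0899 for Il4 and 0.213 and 0.140 for Il13.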

How the data were processed

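The authors deposited FPKM values per Ensembl gene in 2 tables made separately. The submitters' processing notes list Cufflinks 2.2.1, STAR 2.4.2, Trimmomatic 0.35, FastQC 0.10.1 and bcl2fastq 1.8.4, with mm10 as build. Per the labels' protocols, libraries came from total RNA depleted of ribosomal RNA and globin mRNA. Annotation release, normalization options and strand use are details not given in the sources used here. GENCODE M21 named 36423 of 38282 IDs.

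Genes with a mean of at least 1 FPKM (11423) were tested with limma 3.58.1 in R 4.3.3 (lmFit, eBayes with trend) on log2(FPKM + 1), two-sided, with a block for the table, which has the same number as the replicate. The fit leaves 1 residual degree of freedom, and the prior adds 4.70. Calls have a Benjamini-Hochberg adjusted p under 0.05 over all tested genes. Deviations of same-numbered libraries from their group means correlated at 0.0869; the block stands for the tables, not for animals. The fit was checked on simulated data, where it recovered the size of known changes, but the share of false calls was on average above the nominal threshold. Penk itself was not tested.

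Penk, the gene lists and the rule for named genes were chosen with earlier results of these data known. The rule takes Penk, called list members and up to 4 uncalled members per list, genes next to Penk in order, pattern or position, and Il4 and Il13 for reference. Trac, Cd3d, Cd5, Cd6, Zap70 and Ctla4, the further uncalled factors and the genes lower than Penk were named after seeing their values. The alternatives comprised other pseudocounts, filters and scalings, no block, no trend, each library left out, and, chosen after seeing the data, a loess correction for GC content and length within each pair (span 0.3; 98.8% of tested genes). Figures were drawn with matplotlib 3.10.9 in Python 3.11.15.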

Additional observations from a re-analysis of the deposited data

How the results depend on the processing

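The Penk difference of -2.97 kept its direction under every alternative run: -3.05 and -3.01 with pseudocounts of 0.1 and 0.5, -3.22 with libraries scaled to a common sum, -3.10 with protein-coding genes scaled to a common sum, -3.07 after the GC and length correction, and -3.09 to -2.85 with 1 library left out. Without the replicate block it was -2.97. The counts of calls were less stable. Against 1218 genes (717 higher, 501 lower), there were 669 with a filter of 0.1 FPKM, 1893 with protein-coding genes scaled to a common sum (34.6% of them higher, against 58.9%), 423 without the replicate block, 256 without trend, and 0 to 4 with 1 library left out (3 without Th0 2, 0 without Th0+Dopa 2, 3 without Th0 3 and 4 without Th0+Dopa 3). A common sum over all genes gave 1445 calls, 26.0% of them higher, and moved the median of all tested genes from 0.027 to -0.20. The enkephalin pathway had 1 call, or 2 with a pseudocount of 0.1 or a common sum, 3 with protein-coding genes scaled to a common sum, 0 without the replicate block or without trend, and 0 with any 1 library left out. The promoter factors had 3 calls, 4 with protein-coding genes scaled to a common sum, 2 after the GC and length correction, 1 without trend, and 0 with any 1 library left out. The fit without the replicate block used median-of-ratios scaling, as did those with 1 library left out, which had no block and assumed that the lone library varies like the others. The cause of these changes was not tested. Of the single genes named with a call, none changed sign under any alternative run. With 2 libraries per group, values under about 1 FPKM, among them those of the opioid receptor genes, are limited by depth.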
